A study of Mus musculus with 21 samples.

Results

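Embryoid bodies carrying a doxycycline-inducible TWIST1 homodimer were compared with embryoid bodies of the parental A2loxCre line across all genes. All samples titled TWIST1 homodimer induced or A2loxCre were taken, which gave 6 of the 21 samples of the series, 3 in each group. Both groups were mouse embryonic stem cells labelled as C57BL/6, grown as embryoid bodies (floating aggregates in which such cells differentiate) and collected on day 3, after 16 h of doxycycline. The homodimer line had a TWIST1-TWIST1 dimer construct integrated into the A2loxCre genome behind a doxycycline-inducible promoter, and the parental line had no such construct. In A2lox.cre cells the inducible locus lies upstream of Hprt on the X chromosome and holds a Cre cassette until a construct replaces it. The parental samples therefore differ from the homodimer samples in the whole inducible locus and not in TWIST1 alone. Uninduced samples of the homodimer line were not analysed here, so the effect of the line and that of the induced protein cannot be told apart in this comparison. For that reason the values in the TWIST1 monomer line without doxycycline, which carries a TWIST1 construct that was not induced (3 samples), are given beside the main results. The doxycycline-treated monomer line and the doxycycline-treated line with a TWIST1-TCF4 dimer (3 samples each) are used in the same way. The labels do not say how many clones stand behind a line or whether replicates were separate cultures, so p-values measure the spread between these samples.

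Mesenchyme and neural crest depend on TWIST1, a transcription factor of the basic helix-loop-helix class. It binds DNA as a dimer, either with itself or with an E-protein such as TCF3, TCF4 or TCF12, at short sequences called E-boxes, CANNTG. Id proteins, which lack the basic region that touches DNA, bind E-proteins and keep them from DNA. At the stage modelled here, cells leave pluripotency and enter a primitive streak state under Wnt, Nodal and FGF signals, from which mesoderm and endoderm arise.

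Libraries held 9067743 to 11065289 counts, with 19309 to 19864 of 48321 listed genes detected. Levels are given as CPM (counts scaled to a common library total with TMM factors) for samples 1 to 3 in order. They are not corrected for transcript length, and are compared between samples and not between genes. A floor of 3 counts corresponds to 0.272 to 0.329 CPM on that scale in these 6 libraries. Genes with an adjusted p under 0.05 in edgeR's quasi-likelihood test (Benjamini-Hochberg adjustment over 14084 tested genes) are said to pass, and adjusted p-values come from that test unless another is named. Genes of the formative epiblast, the state such cells pass through on leaving naive pluripotency, were present in both groups. The summed level of 20 of them was 6440.4 to 6620.8 CPM in the parental samples and 5258.5 to 5330.5 CPM in the homodimer samples.

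E-box sequences of the kinds bound by TWIST1 were looked up in the promoters of the genes that moved most, to show where such letters lie. CATCTG and CATATG were searched on both strands in the 250 bases before and 50 bases after each start in RefSeq (GRCm38.p6). CATCTG reads CAGATG on the other strand, and every match is also a CANNTG match. CATCTG was present in 19.2% of the 27025 genes with a promoter in the table and in 13.4% of the 10216 tested genes that matched it. Among genes over 2-fold higher in the homodimer line it was present in 21.7% of the 212 that matched, and among genes over 2-fold lower in 18.9% of 127. CATATG was present in 4.48% of all genes, 2.09% of tested genes, 4.25% of the higher set and 1.57% of the lower set. Of the 15 largest rises described below 13 had a promoter in the table. Of those 4 held CATCTG and 1 held CATATG. Cd34, Epha3, Fbln5, Tgfbi and Plcd1 held neither in the 250 bases before their starts. The 250 bases before the start are shown for 3 of the rises with a match and for Gsc, the largest fall, with the match in capitals, 5′ to 3′ on the gene's strand (minus for all 4). A match is a description of the letters in the window and not evidence of binding. Lax1 (chr1:133690109-133690358, the upstream of its listed starts) and Slc8a3 (chr12:81333181-81333430) have 1 CATCTG match each, at -119 and -235 from the start. Ptpn5 (chr7:47133685-47133934, likewise the upstream start) has CATATG at -84, and Gsc (chr12:104473237-104473486) has CATCTG at -210.
Lax1: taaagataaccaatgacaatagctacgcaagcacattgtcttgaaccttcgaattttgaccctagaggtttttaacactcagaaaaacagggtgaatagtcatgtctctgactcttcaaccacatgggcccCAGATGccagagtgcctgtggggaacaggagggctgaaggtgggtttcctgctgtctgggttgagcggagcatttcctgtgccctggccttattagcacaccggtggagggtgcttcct
Slc8a3: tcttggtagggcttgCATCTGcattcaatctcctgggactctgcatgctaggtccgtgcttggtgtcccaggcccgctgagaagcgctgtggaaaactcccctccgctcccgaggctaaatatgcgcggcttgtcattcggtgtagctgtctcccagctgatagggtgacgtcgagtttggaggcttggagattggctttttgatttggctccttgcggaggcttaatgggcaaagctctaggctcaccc
Ptpn5: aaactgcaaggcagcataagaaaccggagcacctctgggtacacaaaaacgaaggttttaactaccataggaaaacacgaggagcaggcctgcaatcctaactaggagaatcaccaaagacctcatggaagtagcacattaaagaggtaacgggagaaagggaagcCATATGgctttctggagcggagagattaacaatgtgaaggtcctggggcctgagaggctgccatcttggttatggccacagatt
Gsc: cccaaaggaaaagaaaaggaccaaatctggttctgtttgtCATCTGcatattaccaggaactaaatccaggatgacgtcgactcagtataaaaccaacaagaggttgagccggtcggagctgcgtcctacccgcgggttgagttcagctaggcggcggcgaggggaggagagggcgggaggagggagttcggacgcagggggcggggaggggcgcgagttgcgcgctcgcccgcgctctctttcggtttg

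The construct was checked first through the gene it carries. Twist1 (chromosome 12, 33957671 to 33959829, plus strand, GRCm38, ENSMUSG00000035799.6) stood at 9.003, 8.10 and 7.44 CPM in the parental samples and 202, 183 and 168 CPM in the homodimer samples. The groups did not overlap (log2 fold change 4.49 ± 0.087 SE, adjusted p 2.0e-26). Counts under this symbol do not separate the construct from the resident gene. In the uninduced monomer line Twist1 was at 4.41, 5.68 and 5.20 CPM, below the parental samples, and in the induced monomer line it was at 649, 607 and 586 CPM, above the homodimer samples. The TCF4 dimer line stood between the parental and the homodimer samples, at 42.1, 40.7 and 36.4 CPM. Twist2, the closest relative of Twist1, had 1 to 9 counts in each of the 6 samples and was not tested. Of the E-protein partners, Tcf4 (log2 fold change -0.17 ± 0.086 SE, adjusted p 0.16) and Tcf12 (log2 fold change -0.058 ± 0.083 SE, adjusted p 0.67) did not pass. Tcf3 was at 175, 163 and 168 CPM in the parental and 188, 190.0 and 182 CPM in the homodimer samples (log2 fold change 0.15 ± 0.051 SE, adjusted p 0.039). That call was lost with DESeq2 (adjusted p 0.078), with RLE factors (adjusted p 0.054), library sizes alone (0.056), no filter on low counts (0.0503) or all 21 samples (0.26) in edgeR, and in 4 of 6 fits that left out 1 sample (without homodimer 1 or 2, or parental 2 or 3).

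Hprt, the neighbour of the inducible locus and a purine salvage enzyme (X chromosome, 52988137 to 53021659), fell in the homodimer line. Its level was 86.7, 81.9 and 82.1 CPM in the parental samples and 15.1, 12.9 and 16.2 CPM in the homodimer samples (log2 fold change -2.51 ± 0.09 SE, adjusted p 2.0e-19). The uninduced monomer line was lower still, at 4.57, 3.58 and 3.33 CPM. In the homodimer line 10.3% of all tested genes were lower and 10.9% higher than in the parental line, and on the X chromosome 19.8% and 7.66%. Among 6 tested genes around the locus, 5 passed as lower and none as higher. Beside Hprt these were Fam122b (-0.87), Gpc3 (-0.66), Mospd1 (-0.39) and Phf6 (-0.25), all on the log2 scale (Mospd1 did not pass without homodimer sample 3 or without parental sample 3), whereas Ccdc160 did not pass (adjusted p 0.86). In the uninduced monomer line 1 of the 6 passed as higher than in the parental line and 2 as lower (19.4% and 18.6% over all genes there). Fewer cells of a type and less RNA per cell cannot be told apart in these bulk samples, here or in any result below.

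Across the transcriptome 2996 genes passed, which is 21.3% of those tested. Of these 1542 were higher (10.9%) and 1454 lower (10.3%) in the homodimer line. Most changes were small, with a median absolute log2 fold change of 0.41 among passing genes. Rises of over 2-fold (305 genes, 2.17%) outnumbered falls of that size (185 genes, 1.31%). The median log2 fold change over all tested genes was 0.0021. CPM did not overlap between the groups for 5111 genes (36.3%). With the 3 libraries labelled TCF12 dimer also in the fit, which raises the biological coefficient of variation from 0.0536 to 0.12, 1265 genes passed.

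**Figure D1:**
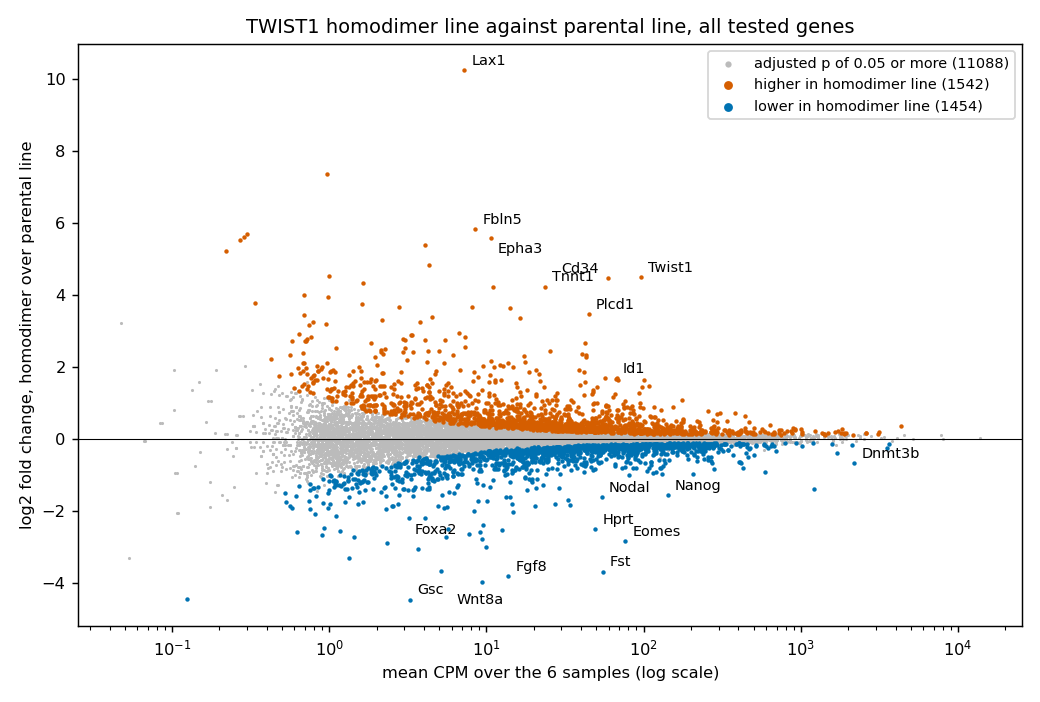
Log2 fold change of the homodimer over the parental line (vertical axis) against mean CPM of the 6 samples (log axis) for 14084 tested genes, 1 point per gene. Orange points mark 1542 genes that passed as higher and blue points 1454 that passed as lower, and the fitted value of Lax1, which had no counts in the parental samples, is not a measure of size.

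The largest rises concerned genes at low levels in parental embryoid bodies, among them a lymphocyte signalling adaptor, matrix proteins, a guidance receptor, an ion exchanger and a surface protein of vessel and blood progenitors. In the 14 rises other than Lax1 no parental sample was above 9.003 CPM. Lax1, the adaptor, had 0 counts in the 3 parental samples and stood at 15.2, 13.6 and 14.6 CPM in the homodimer samples. It was at least 43.9-fold higher, taking the highest 3-count floor of a parental library as the limit (adjusted p 1.2e-15). Lax1 also had 0 counts in the uninduced monomer line, and it stood at 3.42, 2.47 and 3.66 CPM in the induced monomer line and 4.20, 2.76 and 2.88 CPM in the TCF4 dimer line. The 3 homodimer samples were the highest of these 15 samples.

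Fbln5 encodes fibulin-5, a matrix protein that takes part in elastic fibre assembly. It rose from 0.110, 0.109 and 0.612 CPM to 18.2, 14.9 and 17.1 CPM (log2 fold change 5.81 ± 0.31 SE, adjusted p 3.0e-15). Tgfbi, another secreted matrix protein, rose from 0.878, 1.20 and 1.22 to 21.2, 20.5 and 20.8 CPM (log2 fold change 4.22 ± 0.23 SE, adjusted p 2.6e-15). Neither gene's samples overlapped between the groups. Tgfbi was at 4.90, 5.05 and 4.51 CPM in the uninduced monomer line, between the parental and the homodimer samples.

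Epha3, a receptor tyrosine kinase that binds membrane-bound ephrins, rose from 0.878, 0.328 and 0.102 to 20.7, 20.4 and 21.4 CPM (log2 fold change 5.57 ± 0.26 SE, adjusted p 7.8e-17). Cd34, the surface protein of vessel and blood progenitors, rose from 5.49, 5.26 and 4.79 to 115, 109 and 119 CPM (log2 fold change 4.46 ± 0.12 SE, adjusted p 4.3e-22). A gene model on the opposite strand overlaps exons of Cd34, and the strand setting of the authors' counting is not given in the sources used here. All 3 homodimer samples lay above every parental sample for both genes.

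Tnnt1, the troponin T of slow skeletal muscle, rose from 2.31, 1.97 and 2.85 to 41.8, 41.2 and 51.2 CPM (log2 fold change 4.22 ± 0.19 SE, adjusted p 6.3e-17). Plcd1, a phospholipase C, rose from 7.80, 7.66 and 6.93 to 85.1, 78.9 and 81.9 CPM (log2 fold change 3.46 ± 0.098 SE, adjusted p 4.6e-22). Ptpn5, a tyrosine phosphatase best known from neurons, rose from 0.988, 1.31 and 1.22 to 15.0, 15.0 and 15.0 CPM (log2 fold change 3.65 ± 0.19 SE, adjusted p 2.2e-15). None of the 3 overlapped between groups, and none passed between the uninduced monomer and the parental line. The uninduced monomer samples were at 3.43, 2.94 and 1.96 CPM for Tnnt1, 8.004, 7.47 and 7.35 for Plcd1 and 1.47, 0.947 and 1.86 for Ptpn5.

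Slc8a3, a sodium-calcium exchanger, rose from 0.329, 0.219 and 0 to 9.17, 8.16 and 6.64 CPM (log2 fold change 5.39 ± 0.42 SE, adjusted p 1.4e-11). The other large rises were Cygb, a globin (log2 fold change 4.81), Entpd1, an ectonucleotidase (4.33), Dock10 (3.75), Dusp15, a phosphatase (3.66), and Vstm2b (3.64). Parental counts were 3, 2 and 0 for Slc8a3, 1, 2 and 1 for Entpd1 and 2, 2 and 2 for Dock10, none above the floor of 3 counts. For Fbln5 they were 1, 1 and 6. The sizes of these 4 rises are therefore uncertain. Opposite-strand gene models overlap exons of Cygb and Vstm2b. The largest adjusted p among the 15 rises, Twist1 included, was 1.2e-08.

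Measured against the uninduced monomer line (5484 of 14084 genes passing, 38.9%), the 15 genes all passed as higher. The smallest log2 fold change was that of Tgfbi (2.11), and those of Epha3 (6.02), Cd34 (4.27) and Plcd1 (3.44) were close to the values against the parental line. By direction 2778 genes (19.7%) were higher and 2706 (19.2%) lower there. With library sizes alone in place of TMM factors, 3559 were higher and 2106 lower. That comparison shares the homodimer samples with the one above and is not independent of it. Between the uninduced monomer line and the parental line, 5362 genes passed (38.1%, with 19.4% higher and 18.6% lower), and Tgfbi was higher by a log2 fold change of 2.11 while Vstm2b (-1.72) and Twist1 (-0.65) were lower. The other 12 did not pass there. Against the induced monomer line (4825 genes passing, 34.3%, with 17.9% higher and 16.4% lower), 12 of the 15 were higher, Twist1 was lower (-1.74), and Tgfbi (0.13) and Dusp15 (0.31) did not pass. Against the TCF4 dimer line (2560 genes passing, 18.2%, with 8.99% higher and 9.19% lower), 11 were higher and 4 did not pass, namely Fbln5 (0.026), Slc8a3 (-0.30), Tgfbi (-0.066) and Dusp15 (0.52). The comparisons with these other lines share the homodimer samples by which the 15 were chosen, so their counts are not independent of the rises above.

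**Figure D2:**
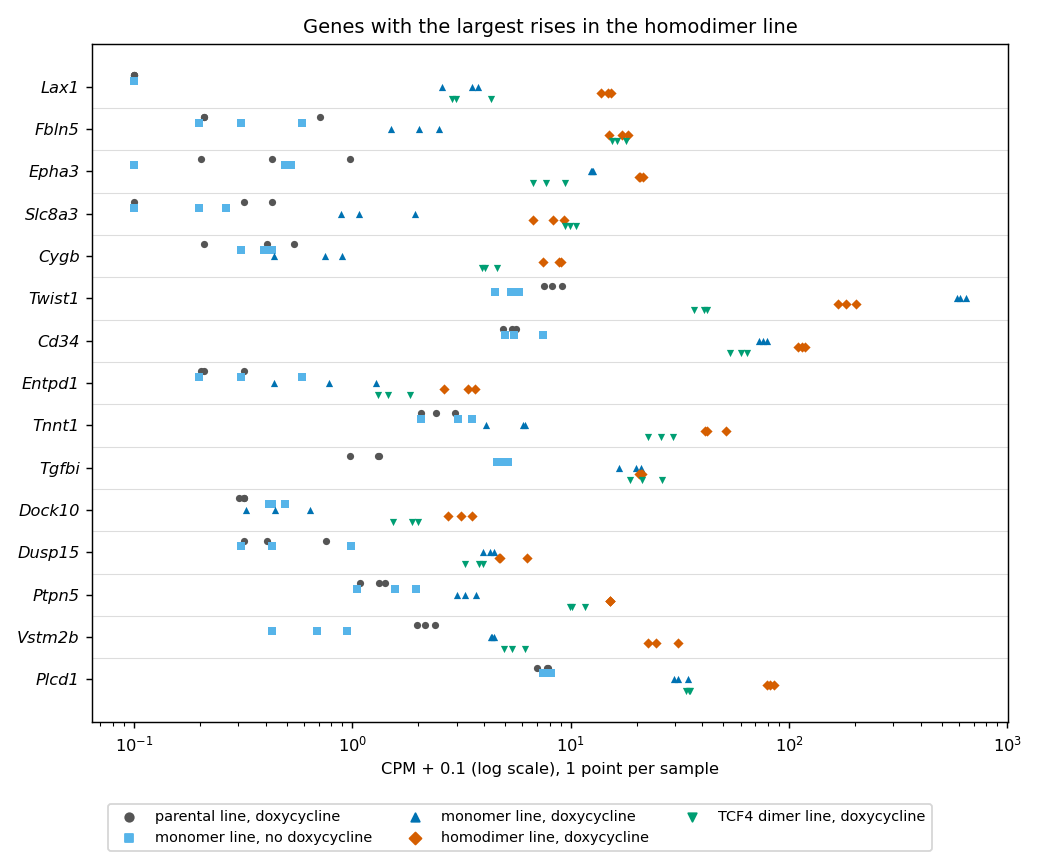
CPM + 0.1 on a log axis for the 15 genes with the largest rises, 1 symbol per sample, in 5 groups of 3. Homodimer samples (diamonds) lie right of the parental samples (circles) for every gene, and for Lax1 the parental and uninduced monomer samples sit at 0 CPM, drawn at 0.1.

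Most genes of the primitive streak fell. Of 18 tested members of a list of primitive streak and early mesoderm genes, 12 passed as lower and 1 as higher. Their median log2 fold change was -1.69. Over all tested genes 10.3% were lower and 10.9% higher. Gsc, a homeobox gene of the organiser, fell from 4.94, 7.99 and 5.71 to 0.218, 0.272 and 0.311 CPM (log2 fold change -4.47 ± 0.36 SE, adjusted p 3.9e-11). The homodimer samples held 2, 3 and 3 counts of Gsc, none above the floor of 3, so the size of its fall is uncertain. Fgf8, a secreted growth factor of the streak, fell from 22.7, 27.8 and 26.5 to 1.86, 1.81 and 1.76 CPM (log2 fold change -3.82 ± 0.16 SE, adjusted p 1.8e-17). Eomes, a T-box factor needed for mesoderm and endoderm, fell from 127, 145 and 132 to 17.8, 20.5 and 17.5 CPM (log2 fold change -2.85 ± 0.09 SE, adjusted p 5.5e-21). For these 3 genes every homodimer sample was below every parental sample, and an opposite-strand gene model overlaps exons of Eomes.

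Wnt ligands of the streak and a target of the pathway fell too. Wnt8a went from 14.6, 20.8 and 17.4 to 0.764, 1.81 and 0.623 CPM (log2 fold change -3.98 ± 0.24 SE, adjusted p 5.3e-14), and Wnt3 from 16.6, 17.0 and 15.6 to 1.97, 3.08 and 1.87 CPM (log2 fold change -2.80 ± 0.21 SE, adjusted p 5.2e-12). Sp5, a transcription factor induced by Wnt signals, went from 7.69, 11.5 and 9.38 to 1.09, 0.544 and 0.623 CPM (log2 fold change -3.67 ± 0.29 SE, adjusted p 2.4e-11). Homeobox genes of the streak, Evx1 (log2 fold change -3.07) and Mixl1 (-3.02), and the LIM homeobox gene Lhx1 (-1.74) were also lower. Evx1 shares exon sequence with its antisense gene Evx1os. T, the brachyury gene, was at 23.8, 29.8 and 25.3 CPM in the parental and 11.9, 8.61 and 8.82 CPM in the homodimer samples (log2 fold change -1.43 ± 0.13 SE, adjusted p 6.0e-10). Fgf4, a growth factor of pluripotent cells, was the 1 member that rose (log2 fold change 0.66 ± 0.07 SE, adjusted p 1.1e-08).

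The other large falls included a secreted antagonist, transcriptional regulators and surface proteins. Fst, the activin antagonist follistatin, fell from 87.9, 113 and 105 to 6.88, 6.98 and 9.76 CPM (log2 fold change -3.70 ± 0.11 SE, adjusted p 9.2e-22), with no overlap of samples. Foxa2, a forkhead factor of endoderm and axial mesoderm, fell from 15.0, 13.6 and 11.2 to 2.40, 2.45 and 1.45 CPM (log2 fold change -2.64 ± 0.22 SE, adjusted p 8.0e-11). Pcdh8, a protocadherin of paraxial mesoderm (-2.60), Sfmbt2, a Polycomb-group gene (-2.74), Btla, a lymphocyte receptor (-2.91), Ism2 (-3.32) and Cxx1c (-2.72) completed the 15 largest falls. Opposite-strand models overlap exons of Fst and Pcdh8, and Cxx1c belongs to a family of closely similar copies, so its counts are uncertain.

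Most of these falls were also present between the parental and the uninduced monomer line. Of the 15, 14 were lower in the uninduced monomer line than in the parental line (18.6% over all genes). Foxa2 did not pass (0.25). That comparison uses the same parental samples by which the 15 were chosen, so it is not independent of the falls above. Measured against the uninduced monomer line, the homodimer line was lower for 7 of the 15 (Gsc, Fgf8, Fst, Eomes, Sfmbt2, Foxa2 and Pcdh8), higher for Evx1 (1.93), and 7 did not pass. Foxa2 had the largest difference there (log2 fold change -2.90 ± 0.22 SE, adjusted p 2.6e-12), with uninduced monomer samples at 14.7, 17.7 and 14.8 CPM. Against the induced monomer line 2 of the 15 were lower (Sfmbt2 and Foxa2), 3 higher and 10 did not pass. Over all genes there 16.4% were lower and 17.9% higher. Against the TCF4 dimer line 1 was lower (Gsc), 2 were higher and 12 did not pass (9.19% lower and 8.99% higher over all genes). Foxa2 did not pass there (log2 fold change -0.0041, adjusted p 0.996). All these comparisons share the homodimer samples by which the 15 were chosen and are not independent of the falls. T was higher in the homodimer line than in the uninduced monomer line, whose samples were at 1.96, 1.79 and 1.08 CPM (log2 fold change 2.64 ± 0.22 SE, adjusted p 3.3e-11). Over the 18 streak genes the median log2 fold change was -1.69 against the parental line and -0.24 against the uninduced monomer line, where 4 were higher and 7 lower (over all genes there, 19.7% and 19.2%). Against the TCF4 dimer line 6 of the 18 were higher and 4 lower (8.99% and 9.19% over all genes), with a median of 0.33.

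**Figure D3:**
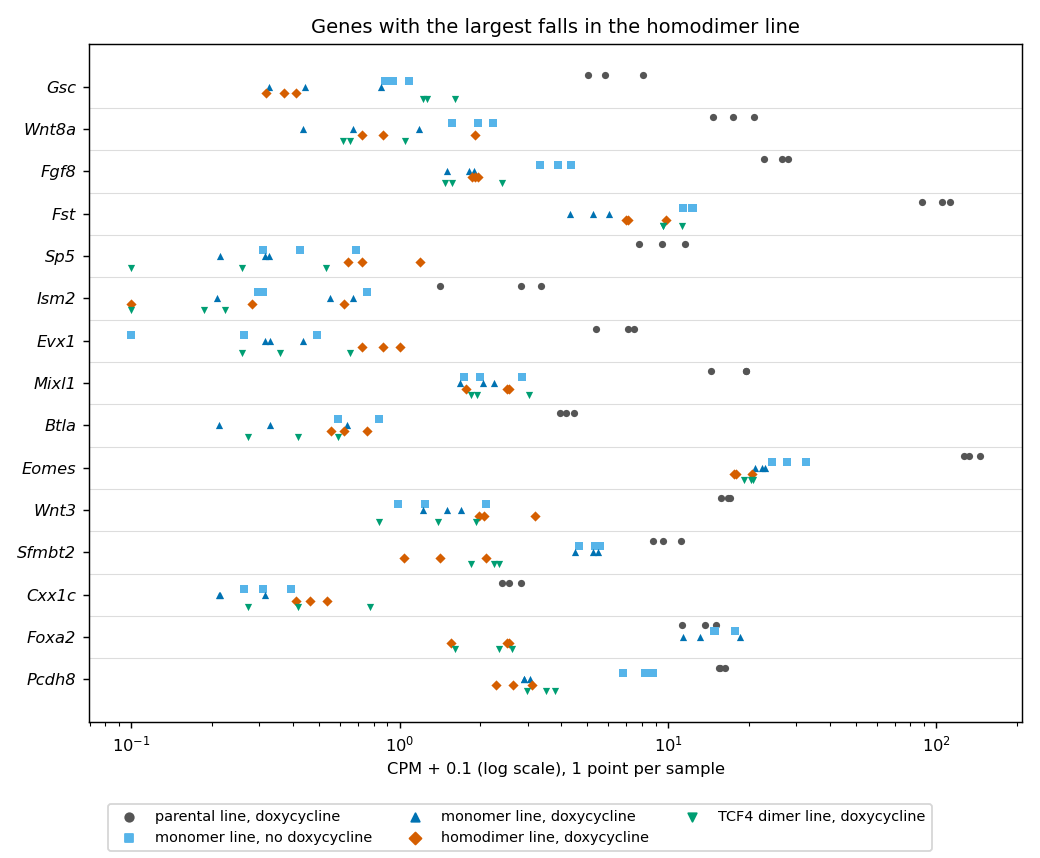
CPM + 0.1 on a log axis for the 15 genes with the largest falls, 1 symbol per sample, in 5 groups of 3. Parental samples (circles) lie right of the homodimer samples (diamonds) for every gene, and for Fgf8 the homodimer samples at 1.86, 1.81 and 1.76 CPM lie below the uninduced monomer samples at 4.25, 3.79 and 3.24 CPM.

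Organiser and definitive endoderm genes, a list that shares Gsc and Lhx1 with the streak list, were mostly lower. Of 14 tested members 11 passed as lower and 0 as higher (10.3% and 10.9% over all tested genes). Their median log2 fold change was -1.39. Trh, which encodes a peptide hormone precursor, fell from 1743, 1790.0 and 1718 to 645, 745 and 618 CPM (log2 fold change -1.39 ± 0.12 SE, adjusted p 7.0e-11). Cer1, a secreted antagonist of Nodal, fell from 3.73, 5.80 and 2.45 to 0.983, 1.09 and 1.14 CPM (log2 fold change -1.88 ± 0.29 SE, adjusted p 1.2e-05). Against the uninduced monomer line 6 of the 14 were lower and 1 higher, where 19.2% and 19.7% of all genes were. Against the TCF4 dimer line 3 were lower and 2 higher, where 9.19% and 8.99% of all genes were.

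Genes of primitive and extraembryonic endoderm were lower in the homodimer line than in the parental line, and further below the uninduced monomer line. Against the TCF4 dimer line more of them were higher than lower. Against the parental line 21 of 25 tested members were lower and 0 higher (10.3% and 10.9% over all tested genes). The median log2 fold change was -0.63, and with all 21 samples in the fit 14 were lower. Against the uninduced monomer line 23 were lower and 0 higher (19.2% and 19.7% over all genes there), with a median of -2.57. Against the induced monomer line 22 were lower and 0 higher (16.4% and 17.9% over all genes), with a median of -2.50. Against the TCF4 dimer line 3 were lower and 9 higher (9.19% and 8.99% over all genes), with a median of 0.38. Gata6 (0.18) and Sox17 (0.18) did not pass against that line. The uninduced monomer line itself was higher than the parental line for 24 of the 25 and lower for 0. Between those lines 19.4% of all genes were higher and 18.6% lower. Gata6, a GATA factor of primitive endoderm, was at 10.7, 13.6 and 12.4 CPM in the parental samples, 4.15, 5.71 and 5.61 in the homodimer samples and 43.1, 49.5 and 37.1 in the uninduced monomer samples (log2 fold change -1.23 ± 0.17 SE, adjusted p 1.4e-06 against the parental line). Sox17, a SRY-box factor of endoderm, was at 6.92, 5.91 and 5.403, 1.97, 2.18 and 2.80 and 16.2, 18.2 and 16.6 CPM in the same order (log2 fold change -1.39 ± 0.18 SE, adjusted p 5.9e-07). The summed level of the list was 2100.1 to 2203.6 CPM in the parental, 1405.8 to 1555.4 CPM in the homodimer and 6653.8 to 7960.6 CPM in the uninduced monomer samples. The share of these cells in the embryoid bodies was not measured, and its part in other differences from the monomer line was not tested.

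**Figure D4:**
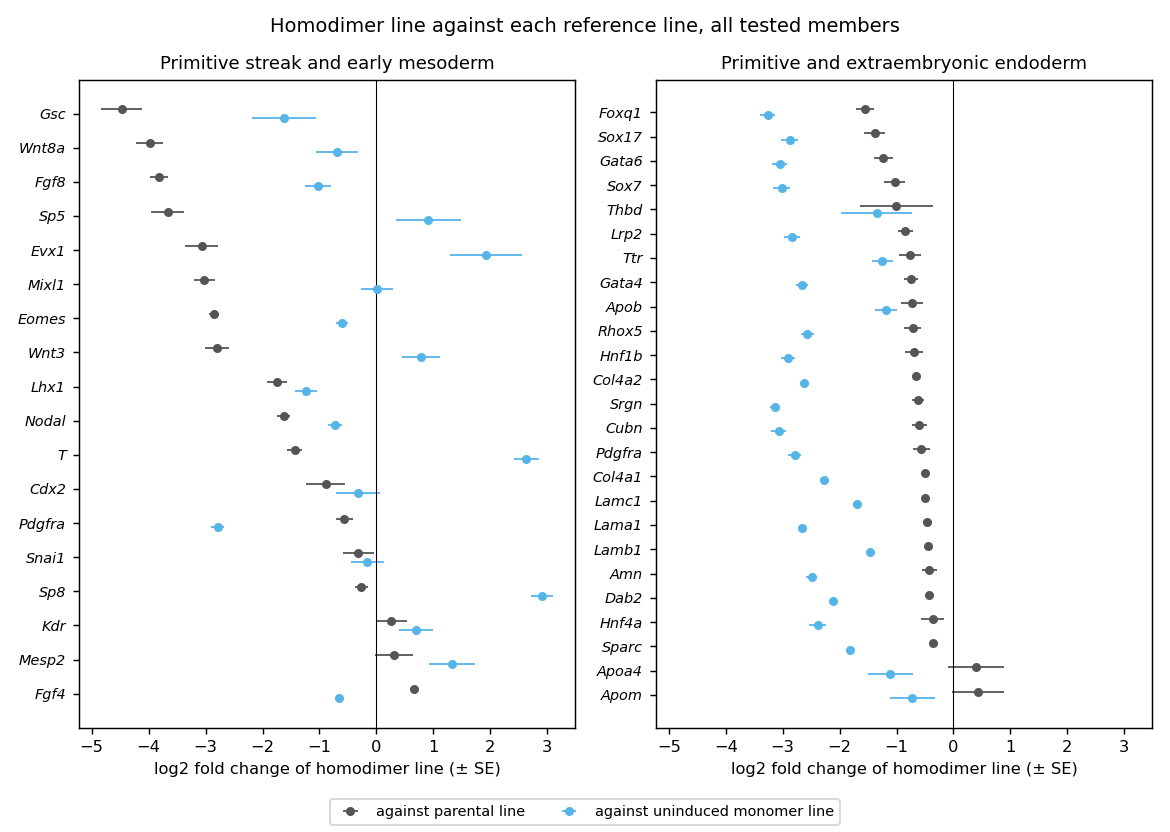
Log2 fold changes of the homodimer line (± SE) against the parental line (dark) and against the uninduced monomer line (light blue) for all 18 tested streak and early mesoderm genes (left) and 25 endoderm genes (right). Streak genes such as T change sign with the reference line (-1.43 and 2.64), whereas Gata6 is lower against both (-1.23 and -3.05).

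Signalling genes were examined by role, with 10.9% of all tested genes higher and 10.3% lower as the shares to read each count against. Of 36 tested Wnt ligands, receptors and feedback genes, 17 were lower and 4 higher, with a median log2 fold change of -0.32. Among receptors Fzd10 fell (-2.02) and Fzd1 rose, from 4.94, 4.93 and 3.36 to 9.83, 10.6 and 11.2 CPM (log2 fold change 1.26 ± 0.16 SE, adjusted p 2.3e-07). Of 14 Nodal pathway genes 5 were lower and 1 higher, with a median of -0.059. The ligand Nodal fell from 82.3, 86.9 and 76.8 to 21.8, 30.1 and 27.0 CPM (log2 fold change -1.63 ± 0.11 SE, adjusted p 1.0e-12), and the co-receptor Tdgf1 (-0.60) fell with it.

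FGF genes were split. Of 25 tested ligands, receptors and ERK feedback genes 8 were higher and 9 lower (10.9% and 10.3% over all genes), and 6 and 5 with all 21 samples in the fit. Spry4 and Dusp6, feedback inhibitors of ERK signalling, rose by log2 fold changes of 0.80 and 0.55, and Spry2, another one, was lower (-0.60). Among ligands Fgf3 (1.38) and Fgf4 (0.66) rose, and Fgf8 (-3.82), Fgf10 (-1.15) and Fgf5 (-0.58) were lower.

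All 4 Id genes rose. Id1 stood at 32.9, 31.5 and 30.9 CPM in the parental samples and 95.8, 108 and 98.9 CPM in the homodimer samples (log2 fold change 1.67 ± 0.11 SE, adjusted p 8.3e-13). Id2 (1.25), Id3 (1.23) and Id4 (1.28) rose too, with their log2 fold changes in brackets, and no sample overlapped between the groups. Over 7 tested E-protein and Id genes 5 were higher and 0 lower, with a median of 1.23. Against the uninduced monomer line Id1 to Id4 were higher as well (1.78, 0.97, 2.14 and 1.43), and against the TCF4 dimer line they were lower (-1.27, -1.14, -0.65 and -1.001). The Id genes are also known targets of BMP signals. Of 23 BMP ligands, antagonists and targets, Id1 to Id3 included, 5 were higher and 6 lower, with a median of -0.029. Msx2, another BMP target, fell from 1.65, 1.31 and 2.45 to 0.437, 0.544 and 0.208 CPM (log2 fold change -2.14 ± 0.40 SE, adjusted p 1.8e-04).

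Notch pathway genes also went both ways, with 5 of 18 higher and 4 lower. Dll1, a Notch ligand, rose from 3.18, 4.16 and 3.98 to 17.1, 13.7 and 15.1 CPM (log2 fold change 2.01 ± 0.16 SE, adjusted p 2.7e-11), and Lfng, a glycosyltransferase that modifies Notch receptors, from 4.61, 3.94 and 4.89 to 18.7, 19.03 and 16.1 CPM (log2 fold change 2.00 ± 0.14 SE, adjusted p 2.6e-12). Hes3, a repressor of the Hes family, had 0 counts in the parental samples and 1.53, 2.08 and 2.18 CPM in the homodimer samples, at least 5.86-fold higher (adjusted p 5.8e-07). The ligand Jag1 fell (-0.63). Of 16 genes of retinoic acid metabolism and its receptors 3 were higher and 2 lower, and the lower share was near the 10.3% of all tested genes. Dhrs3, a retinal reductase, rose (1.45), and Cyp26a1, which breaks retinoic acid down, fell from 14.9, 16.3 and 14.1 to 6.99, 5.80 and 5.09 CPM (log2 fold change -1.34 ± 0.15 SE, adjusted p 3.0e-08).

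Eph receptors and ephrins were among the lists with the most rises. Of 18 tested members 8 were higher and 5 lower, and the median log2 fold change was 0.18. Beside Epha3, the receptors Ephb3 (from 30.6, 32.2 and 34.6 to 65.0, 64.5 and 63.7 CPM, log2 fold change 0.99 ± 0.065 SE, adjusted p 3.7e-13) and Ephb2 (0.63) and the ligand Efna2 (0.83) rose. Epha2 (-0.89), Epha1 (-0.82) and Epha7 (-0.74) were lower. Against the uninduced monomer line 12 were higher and 3 lower, where 19.7% and 19.2% of all genes were.

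Pluripotency genes did not move as a block. Of 16 naive pluripotency factors 5 were higher and 3 lower (10.9% and 10.3% over all tested genes), with a median of -0.012. Nanog, a core factor, fell from 212, 221 and 204 to 64.5, 77.4 and 72.7 CPM (log2 fold change -1.57 ± 0.082 SE, adjusted p 2.0e-15), while Esrrb rose from 35.2, 53.3 and 46.6 to 68.0, 73.1 and 69.2 CPM (log2 fold change 0.64 ± 0.11 SE, adjusted p 7.2e-05). Nanog in the uninduced monomer line was at 79.2, 70.6 and 79.3 CPM and did not differ from the homodimer line past the threshold (adjusted p 0.47). Of 20 formative and epiblast genes 11 were lower and 4 higher, and 7 and 1 with all 21 samples in the fit. Dnmt3b, a DNA methyltransferase of the epiblast, fell from 2702, 2638 and 2730.0 to 1709.6, 1637 and 1673 CPM (log2 fold change -0.69 ± 0.048 SE, adjusted p 1.9e-12).

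TWIST1 is best known for its roles in head mesenchyme and in epithelial-mesenchymal transition, and genes of both went in either direction. Of 22 head mesenchyme genes 4 were higher and 8 lower, with a median of -0.48, and the number lower was 4 without parental sample 2. Sox9, a SRY-box factor of cartilage and neural crest, rose from 1.54, 1.31 and 1.33 to 11.7, 8.70 and 7.89 CPM (log2 fold change 2.74 ± 0.26 SE, adjusted p 1.7e-09), and the forkhead gene Foxc1 rose from 0.329, 0.219 and 0.306 to 1.20, 1.09 and 1.14 CPM (log2 fold change 1.96 ± 0.48 SE, adjusted p 0.0029). Of 22 genes of epithelial-mesenchymal transition, cadherins and mesenchymal cytoskeleton 6 were higher and 7 lower. Zeb1, a repressor of epithelial genes, rose from 1.10, 1.31 and 1.63 to 4.15, 3.99 and 4.26 CPM (log2 fold change 1.60 ± 0.26 SE, adjusted p 2.8e-05), and Mmp2, a matrix protease, rose (0.70). Snai1 did not pass (log2 fold change -0.31 ± 0.27 SE, adjusted p 0.47). Cdh1, which encodes E-cadherin, was at 1029, 1022 and 1034 CPM in the parental and 1029.6, 972 and 953 CPM in the homodimer samples and did not pass (adjusted p 0.32). Of 31 epithelial junction and keratin genes 6 were higher and 5 lower (10.9% and 10.3% over all genes), with a median of 0.0029, and 2 and 3 with all 21 samples in the fit.

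In neural ectoderm 3 of 12 tested genes were higher and 2 lower. Tubb3, a neuronal tubulin, rose from 46.0, 33.5 and 38.4 to 90.0, 85.8 and 89.3 CPM (log2 fold change 1.17 ± 0.078 SE, adjusted p 5.3e-13), and the paired box gene Pax6 from 2.53, 3.18 and 3.26 to 8.52, 7.34 and 7.58 CPM (log2 fold change 1.38 ± 0.20 SE, adjusted p 2.7e-06), while Nes, which encodes nestin, fell (-0.82). Of 18 genes of hemangiogenic mesoderm 2 were higher, a share near the 10.9% of all tested genes, and 4 lower. Cd34 and Gata1 (1.68) rose, while the ligand Apln fell from 21.96, 22.7 and 19.98 to 3.82, 3.17 and 4.26 CPM (log2 fold change -2.53 ± 0.15 SE, adjusted p 4.4e-14), and its receptor Aplnr (-1.49) and the VEGF receptor Flt1 (-1.13) fell too. Kdr, a defining gene of that mesoderm, was at 2.20, 1.20 and 3.16 CPM in the parental and 2.84, 2.08 and 3.11 CPM in the homodimer samples and did not pass (adjusted p 0.54). Of 16 fibroblast and mesenchymal genes 3 were higher and 1 lower, of 10 trophectoderm genes 1 and 2, of 12 tissue-specific bHLH factors 1 and 1, and of 5 tested Hox genes 0 and 0. Over all tested genes the shares were 10.9% and 10.3%, so counts this small are not results about these lists.

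Basement membrane and collagen genes had 5 members higher and 10 lower of 31 tested (10.9% and 10.3% over all tested genes). Their median was -0.20, and 3 were higher and 5 lower with all 21 samples in the fit. Nid1 and Nid2, the nidogens that link laminin to collagen IV, rose. Nid1 went from 20.3, 20.04 and 23.2 to 64.2, 63.3 and 63.9 CPM (log2 fold change 1.59 ± 0.068 SE, adjusted p 1.3e-17) and Nid2 from 207, 235 and 234 to 382, 372 and 339 CPM (log2 fold change 0.69 ± 0.054 SE, adjusted p 1.7e-11). The collagen IV genes Col4a1 (-0.50) and Col4a2 (-0.65) fell. These neighbours overlap on opposite strands and are also on the endoderm list. Opposite-strand gene models overlap exons of Nid1, Nid2, Dll1, Gata6, Sox17, Zeb1, Id4, Fgf10, Epha1, Nnat and Meg3 too, so the counts of these genes are uncertain in the same way.

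Lists of cell state and metabolism had small median changes. Of 32 hypoxia and glycolysis genes 7 were higher and 7 lower, of 18 p53 targets 2 and 7, of 21 ATF4 and amino acid synthesis genes 0 and 9, and of 23 cholesterol genes 2 and 1. Their medians were 0.0077, -0.13, -0.19 and 0.030. Over all tested genes 10.9% were higher and 10.3% lower. The p53 and ATF4 counts as higher and both cholesterol counts were near or below those shares and are not results about these lists. With all 21 samples in the fit 2 hypoxia genes passed as higher, and 2 p53 targets and 4 ATF4 genes as lower. Of 28 imprinted genes 2 were higher, a share below that of all tested genes, and 8 lower. Nnat, an imprinted gene best known from the nervous system, rose from 15.7, 12.3 and 11.6 to 71.6, 62.4 and 69.2 CPM (log2 fold change 2.36 ± 0.11 SE, adjusted p 8.0e-17), with no overlap of samples. The maternally expressed RNAs Meg3 (-0.76), Rian (-0.68) and Mirg (-0.85), which lie together on chromosome 12, were all lower than in the parental samples and overlap small RNA genes on their own strand, and none of them passed against the uninduced monomer line.

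**Figure D5:**
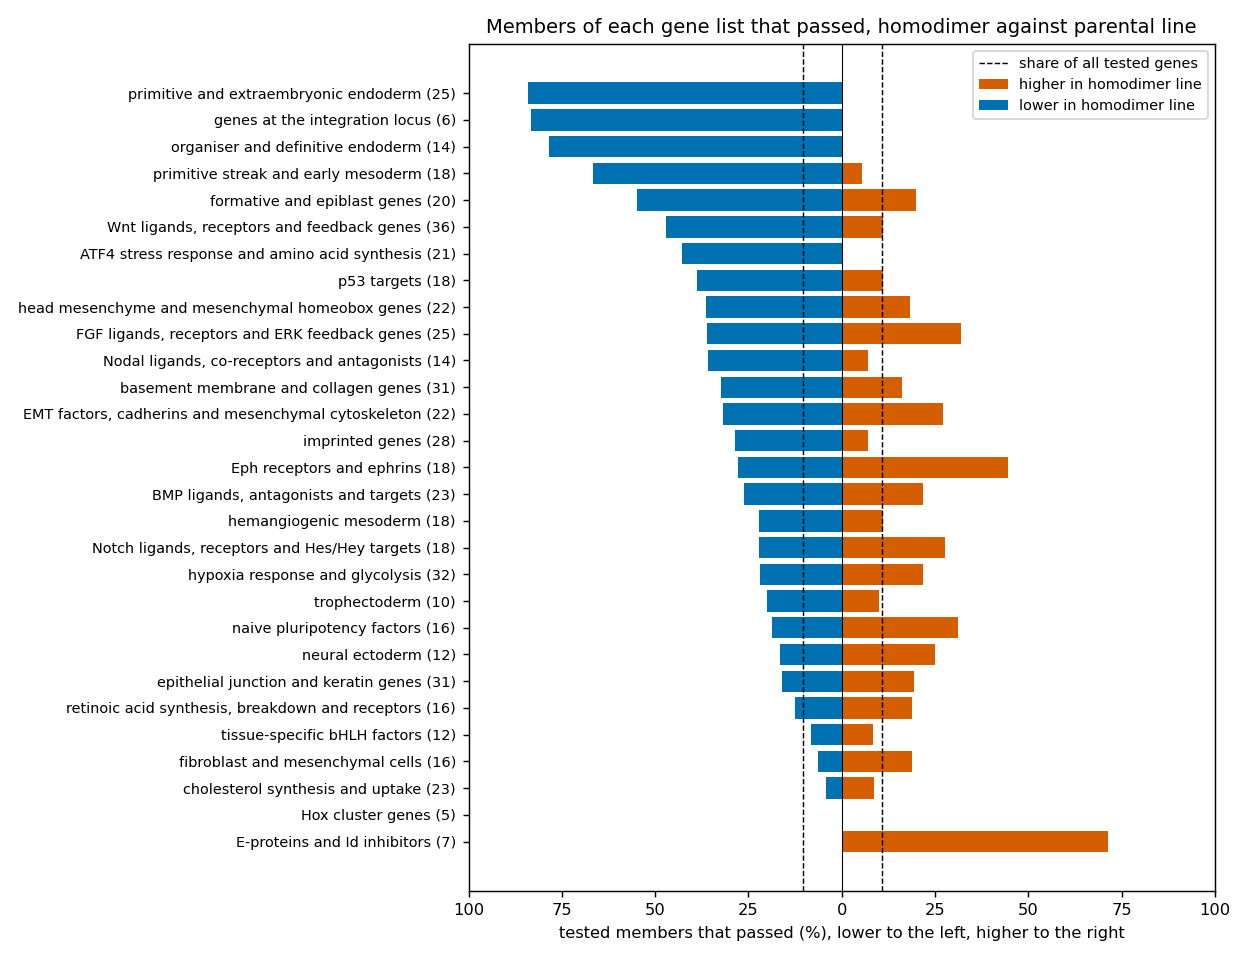
Share of tested members of each of 29 gene lists that passed as higher (orange, right) or lower (blue, left) in the homodimer line, with the number tested in brackets. Dashed lines mark the share of all tested genes, 10.9% higher and 10.3% lower; the endoderm, integration-locus, organiser and streak lists reach furthest to the left and the E-protein and Id list furthest to the right.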

How the data were processed

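Messenger RNA libraries of embryoid bodies were compared as gene counts. Each sample had 1 deposited file of unnormalised read counts by gene symbol, judged from its whole-number values, and the submitters' processing notes name FastQC, TopHat2, HTSeq, mm10 and GRCm38. Versions, roles and the strand setting are not given in the sources used here. A set of 25 symbols had turned into dates in 18 of the files and was left unresolved.

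Counts were tested with edgeR 4.0.16 (quasi-likelihood test, TMM factors, filterByExpr with a minimum count of 10 and a minimum total of 15) in R 4.3.3, with Benjamini-Hochberg adjustment and a threshold of 0.05. All 5 groups used here and the group of the line with a TCF3 dimer (18 samples) entered 1 fit. The 3 libraries labelled TCF12 dimer were left out because, in an earlier analysis of these data, 1 of them stood apart and raised the shared spread. Standard errors come from the F statistic. Gene positions and overlaps are from GENCODE M21, and promoters from RefSeq. On simulated counts for the homodimer and parental comparison, edgeR called 86.9% of 99 genes changed 2-fold and 100% of 99 changed 4-fold. It also called 12 unchanged genes, among 13832 genes run in all. Every gene was simulated with the same spread and with equal mean shares in the other groups, unlike the real counts.

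Replicates were not identical (chi-square per degree of freedom 1.42 to 2.50 between replicates). Replicate numbers do not pair the samples, with correlations of -0.087, -0.018 and -0.021 between same-numbered samples. The genes named are those of the construct, the 15 largest changes in each direction among passing genes with no overlap of samples and a mean of at least 2 CPM in the higher group, and up to 4 members of each list in each direction. Unnamed gene models were left out of the 15, and T, Trh, Cdh1, Snai1 and Kdr were named outside the rule after their values were seen, as list members. The comparison, the gene lists and the rule were chosen with earlier results of these data known. Alternatives were DESeq2 1.42.0, other scaling factors, other filters on low counts, other sets of samples, a replicate block and leaving out each sample.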

Additional observations from a re-analysis of the deposited data

Results flagged for a closer look

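Lax1 was also present in libraries outside the comparisons. The 3 libraries labelled TCF12 dimer held 51, 49 and 41 counts of Lax1, the lowest being 41, whereas the 3 parental libraries held 0.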

How the results depend on the processing

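The number of passing genes for the homodimer against the parental line was 2996, and it stayed within 1.5 times that number with DESeq2 (2465), RLE factors (3007), library sizes alone (2876), all genes with a count (2828), genes at 1 CPM or more in 3 samples (2994) and only the 6 samples compared (3113). With all 21 samples in the fit it was 1265, and it was 3259 against the uninduced monomer line, 2642 against the induced monomer line and 835 against the TCF4 dimer line. That fit adds the 3 libraries labelled TCF12 dimer and had a biological coefficient of variation of 0.12 in place of 0.0536. Leaving out 1 sample gave 2304 to 2593 genes against the parental line, 4562 to 5309 against the uninduced monomer line, 4142 to 4404 against the induced monomer line and 1769 to 2270 against the TCF4 dimer line. The replicate numbers share only a number, and with a replicate block 3043, 5598, 4933 and 2672 genes passed in the same order. Of 175 genes named by the rule, 171 of which were tested with only the 6 samples compared, none changed direction where tested. Calls were lost for 8 genes with DESeq2, 2 with RLE factors, 3 with library sizes alone, 3 without a filter, 39 with all 21 samples, 2 with the replicate block, 1 with only the 6 samples compared (Tfap2c) and 9 to 17 when 1 sample was left out. Among the genes described, the lost calls were Tcf3, Mospd1 and Phf6, the last with all 21 samples only, and Tcf4 passed as lower without parental sample 1 (log2 fold change -0.27). The depth limits statements on genes under a floor of 3 counts, 0.272 to 0.329 CPM. Among list counts of 4 or more, those that moved by over 1.5 times with all 21 samples were, as higher, Wnt (4 to 2), BMP (5 to 3), Notch (5 to 3), formative (4 to 1), head mesenchyme (4 to 2), epithelial (6 to 2), basement membrane (5 to 3) and hypoxia (7 to 2). As lower they were FGF (9 to 5), Notch (4 to 1), formative (11 to 7), epithelial-mesenchymal transition (7 to 4), epithelial (5 to 3), basement membrane (10 to 5), imprinted (8 to 5), p53 (7 to 2) and ATF4 (9 to 4). Without parental sample 2 the basement membrane count as higher was 3, the head mesenchyme count as lower 4 and the hypoxia count as higher 4, which was also 4 without homodimer sample 2.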

Other observations

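Among rises outside the naming rule, and chosen after their values were seen, were genes of hedgehog, apelin-receptor and semaphorin signalling. Boc, a hedgehog co-receptor, was at 2.64, 2.74 and 3.36 CPM in the parental and 32.5, 29.8 and 26.9 CPM in the homodimer samples (log2 fold change 3.34 ± 0.16 SE, adjusted p 3.3e-16, edgeR). Apela, which encodes a peptide ligand of the apelin receptor, was at 10.1, 12.9 and 11.3 and 69.4, 72.8 and 76.2 CPM (log2 fold change 2.67 ± 0.11 SE, adjusted p 4.9e-18, edgeR). It rose while Apln, the other ligand of that receptor, and the receptor gene Aplnr fell. Plxna2, a semaphorin receptor, was at 7.25, 7.45 and 8.87 and 48.9, 38.8 and 40.7 CPM (log2 fold change 2.44 ± 0.12 SE, adjusted p 5.5e-16, edgeR), and the semaphorins Sema3f (1.26) and Sema6d (1.39) were higher too. Otx1, a homeobox gene of the forebrain, was at 2.20, 1.75 and 1.43 and 14.5, 9.61 and 14.1 CPM (log2 fold change 2.82 ± 0.23 SE, adjusted p 3.4e-11, edgeR). All 6 genes were also higher than in the uninduced monomer line, by log2 fold changes of 3.85, 2.55, 1.86, 1.43, 1.80 and 5.14. Against the TCF4 dimer line Boc (0.48), Apela (0.93) and Otx1 (2.04) were higher. Plxna2 (-0.73) and Sema3f (-0.54) were lower there, and Sema6d (0.26) did not pass.

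A pair of CATCTG motifs with 5 bases between them (both strands) was present in the promoter window of 5 of 27025 genes, of which 2 were tested. One of these, Anpep, which encodes a membrane aminopeptidase, was at 18.3, 16.9 and 19.1 CPM in the parental and 65.4, 63.4 and 67.7 CPM in the homodimer samples (log2 fold change 1.85 ± 0.074 SE, adjusted p 3.2e-18, edgeR). Anpep was higher than in the uninduced monomer line (1.89), the induced monomer line (0.68) and the TCF4 dimer line (0.70). Slc6a17, the other, did not pass (log2 fold change 0.57, adjusted p 0.31, edgeR). Over all tested genes 21.3% passed, so a count over 2 genes is not a result about the motif. Anpep was picked after its values were seen, and a match is not evidence of binding. The 250 bases before the Anpep start (chr7:79848211-79848460, minus strand, GRCm38.p6, RefSeq) are shown 5′ to 3′ with the pair, here as CAGATG at -221 and -210, in capitals.
Anpep: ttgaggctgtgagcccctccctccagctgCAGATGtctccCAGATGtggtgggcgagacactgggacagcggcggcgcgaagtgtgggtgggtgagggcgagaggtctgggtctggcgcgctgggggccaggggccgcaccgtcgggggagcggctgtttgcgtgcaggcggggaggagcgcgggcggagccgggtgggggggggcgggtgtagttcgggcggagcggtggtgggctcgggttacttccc

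Chromosome 8 and the X chromosome were singled out after the values were seen. On chromosome 8, 17.7% of tested genes were higher and 8.73% lower (10.9% and 10.3% over all genes). Median differences from the parental mean were taken on the log2 scale, over 8854 genes averaging at least 10 CPM in the homodimer and parental samples. From each chromosome's median the median of all these genes in the same sample was subtracted. On chromosome 8 this median difference was 0.065, 0.066 and 0.051 in the 3 homodimer samples. In the uninduced monomer samples it was -0.079, -0.088 and -0.11, and in the TCF4 dimer samples 0.067, 0.054 and 0.093, as high as in the homodimer samples. On the X chromosome 7.66% were higher and 19.8% lower, with medians of -0.054, -0.072 and -0.057. The X chromosome medians were also below 0 in the uninduced monomer samples (-0.066, -0.072 and -0.040) and the TCF4 dimer samples (-0.025, -0.033 and -0.056).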
